A study of Mus musculus with 16 samples.

Results

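Genes of hypoxia-inducible factor 1 (HIF-1) signalling, glycolysis and the wider transcriptional response to low oxygen were followed here, as a list of 40 symbols, across sorted mouse CD4+ T cells. A gene was taken where a probe set was mapped to exactly its symbol, and of several such probe sets the one with the highest mean over the 16 arrays stood for the gene. Of the 40 symbols, 38 were found, out of 19531 genes on the array, and 36 of these passed the filter on low values and were tested among 12798 genes. Gapdh (glyceraldehyde-3-phosphate dehydrogenase) was represented by probe sets shared with other genes and has no value. Ero1l, an oxidase of the endoplasmic reticulum, is listed under its present symbol Ero1a and so was not matched. P4ha2, a collagen prolyl hydroxylase, and Car9, a carbonic anhydrase of the cell surface, were found but lay under the filter, with log2 intensities of 5.34 to 6.05 and 5.33 to 5.68.

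The series compares regulatory T cells (Treg) with conventional CD4+ T cells (Tconv) of mice whose Foxp3 gene carries a green fluorescent protein (GFP) reporter. Spleen cells of male mice 6 weeks old were double-sorted on a MoFlo instrument as CD3+CD4+GFP+ (Treg) or CD3+CD4+GFP- (Tconv). The mice carried either the Foxp3-GFP allele, in which GFP is joined to the Foxp3 protein (called fusion), or Foxp3-IRES-GFP, in which GFP is made as a separate protein (called ires), each on the B6 or the NOD background. The 8 groups of B6 fusion, B6 ires, NOD fusion and NOD ires Treg and Tconv held 2 Affymetrix arrays each. No treatment is named, every mouse carried a reporter allele, and NOD is the strain that develops autoimmune diabetes. The labels do not say whether the 2 arrays of a group came from separate mice, so the p-values measure the spread between arrays, which may be technical. Their number limits the precision. In bulk RNA, fewer cells of a kind and less RNA per cell cannot be told apart.

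HIF-1 is a pair of proteins, an oxygen-regulated subunit encoded by Hif1a and a stable partner encoded by Arnt. In the presence of oxygen, prolyl hydroxylases mark the first for capture by the Vhl protein and destruction, and when oxygen is short, or when antigen receptor and mTOR signals raise its synthesis, the pair binds DNA and switches on glucose transporters, glycolytic enzymes and genes of adaptation to hypoxia. In T cells this programme is known for its part in effector differentiation, and its weight in Treg has been debated.

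The sorts separated the cells by the markers of Treg. Foxp3, on whose reporter the cells were sorted, differed by 4.31 ± 0.11 on the log2 scale (Treg minus Tconv, ± standard error), and all 5 Treg markers were higher in Treg. Summed Treg marker intensities were 518 to 996 in Tconv and 10643 to 14888 in Treg, and those of CD4+ T cell markers were 17049 to 20307 and 16340 to 20598. Markers of other cells summed to less than CD4+ T cell markers on every array. Their summed intensities in Tconv and Treg were 292 to 482 and 335 to 433 for B cells, 442 to 612 and 404 to 551 for myeloid cells, and 267 to 355 and 261 to 345 for red cells and platelets. Those of CD8+ T and NK cells were 779 to 1099 and 538 to 869. Cd79a, Ms4a1, Fcrla, Cd14, Csf1r, S100a8, Ncr1, Klrb1c, Gzma, Pf4 and Ppbp lay under the filter, and an array intensity is never 0. Markers of naive or recirculating T cells summed to 9067 to 11334 in Tconv and 2615 to 5002 in Treg. Between Treg and Tconv, the test called 1 of 3 tested B cell markers (higher in Treg) and 1 of 5 myeloid (lower). It called 3 of 4 CD8+ T and NK cell markers (1 higher and 2 lower) and 0 of 3 red cell and platelet markers. All 3 tested naive or recirculating T cell markers were called lower. Differences ran from -0.15 to 0.69 for B cell, -0.21 to 0.07 for myeloid and -2.35 to 0.23 for CD8+ T and NK cell markers. The part of these markers in the differences between Treg and Tconv was not tested. The median intensity of an array was 86.7 to 99.0, and the difference between the 2 arrays of a group had an SD of 0.185 to 0.251 (log2) over genes. The SD compares arrays within a group, so it cannot show whether a group stood apart from the rest.

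Promoter windows of 300 bases from RefSeq (build GRCm38.p6) were matched to 35 of the 38 genes found. The letters ACGTG or GCGTG, the core to which HIF-1 binds, were searched on both strands. They were present for 31 of these 35 genes (88.6%), for 64.4% of the 10240 tested genes with a window, and in 43.8% of all 32851 windows of that length. ACGTG alone was present for 71.4% of the 35 genes and 28.2% of the tested genes. Genes with more windows have more chances of a match: the 35 genes had 50 windows, of which 39 (78.0%) held a core. The share among windows of the tested genes alone was not counted. The 35 genes were chosen for ties to HIF-1, glycolysis or hypoxia, so these shares are a description. The windows of Hif1an, Vhl, Eno2 and Tpi1 held none. The 250 bases before the start of transcription are shown for Eno3, Hif1a, Pdk1 and Egln3, the 4 called genes with the largest differences between Treg and Tconv among those with a matched window and a core in it. Capitals mark each core in either orientation, 5′ to 3′ on the strand of the gene.
Eno3 (chr11:70656926-70657175, plus strand): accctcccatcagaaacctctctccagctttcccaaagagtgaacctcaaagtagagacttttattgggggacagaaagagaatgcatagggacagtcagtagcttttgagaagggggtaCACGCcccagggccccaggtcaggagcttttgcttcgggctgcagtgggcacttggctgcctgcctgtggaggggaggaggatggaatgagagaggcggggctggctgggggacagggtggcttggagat
Hif1a (chr12:73907617-73907866, plus strand): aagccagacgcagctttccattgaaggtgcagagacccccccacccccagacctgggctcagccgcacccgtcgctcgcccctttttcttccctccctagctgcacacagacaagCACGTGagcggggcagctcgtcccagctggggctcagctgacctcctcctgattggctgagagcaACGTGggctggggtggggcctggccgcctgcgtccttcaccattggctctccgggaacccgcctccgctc
Pdk1 (chr2:71872974-71873223, plus strand): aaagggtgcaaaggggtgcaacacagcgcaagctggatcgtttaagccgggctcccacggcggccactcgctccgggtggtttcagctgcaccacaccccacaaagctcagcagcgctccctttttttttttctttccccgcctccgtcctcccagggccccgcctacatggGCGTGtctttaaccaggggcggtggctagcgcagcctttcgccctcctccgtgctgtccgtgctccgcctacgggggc
Egln3 (chr12:54203875-54204124, minus strand): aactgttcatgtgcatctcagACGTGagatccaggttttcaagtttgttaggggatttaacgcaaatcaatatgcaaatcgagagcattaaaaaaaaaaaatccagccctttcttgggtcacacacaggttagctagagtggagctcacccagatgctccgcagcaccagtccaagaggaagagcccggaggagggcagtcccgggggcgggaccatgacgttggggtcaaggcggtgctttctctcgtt
The core begins 130 bases before the start in Eno3, 78 in Pdk1 and 229 in Egln3. Hif1a has matches 135, 134 and 70 bases before its start. The first pair overlap, since CACGTG holds ACGTG on both strands. CACGTG is also the E-box to which Myc and its partners bind. Such a match describes the letters and no binding was measured.

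Treg and Tconv differed at 19 of the 36 genes tested, or 52.8%, where 28.6% of all 12798 genes were called (limma, adjusted p under 0.05, Benjamini-Hochberg over all genes tested). Of the 19, 15 were higher in Treg, where 16.7% of all genes were, and 4 were lower, where 11.9% were. The 15 include Hk2 and Eno2, which passed the filter by their Treg arrays. The median difference was 0.08 over the 36 and -0.01 over all genes. Hif1a itself, the glucose transporter gene Slc2a3, the enolase gene Eno3, the oxygen sensor gene Egln3 and the hypoxia targets P4ha1 and Ndrg1 were higher in Treg, whereas Pdk1, a kinase that inhibits pyruvate dehydrogenase and so holds pyruvate carbon back from the citric acid cycle, was lower. Of the widely expressed glycolytic genes, Tpi1 was higher in Treg and Aldoa lower, while Ldha, Pgk1, Pgam1 and Pkm did not pass the test. The 8 Treg arrays lay wholly above the 8 Tconv arrays for Hif1a, Slc2a3, Aldoc, Eno3, Pdk3 and P4ha1. The share of all genes separated in this way was not counted, so this describes single genes.

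**Figure D1:**
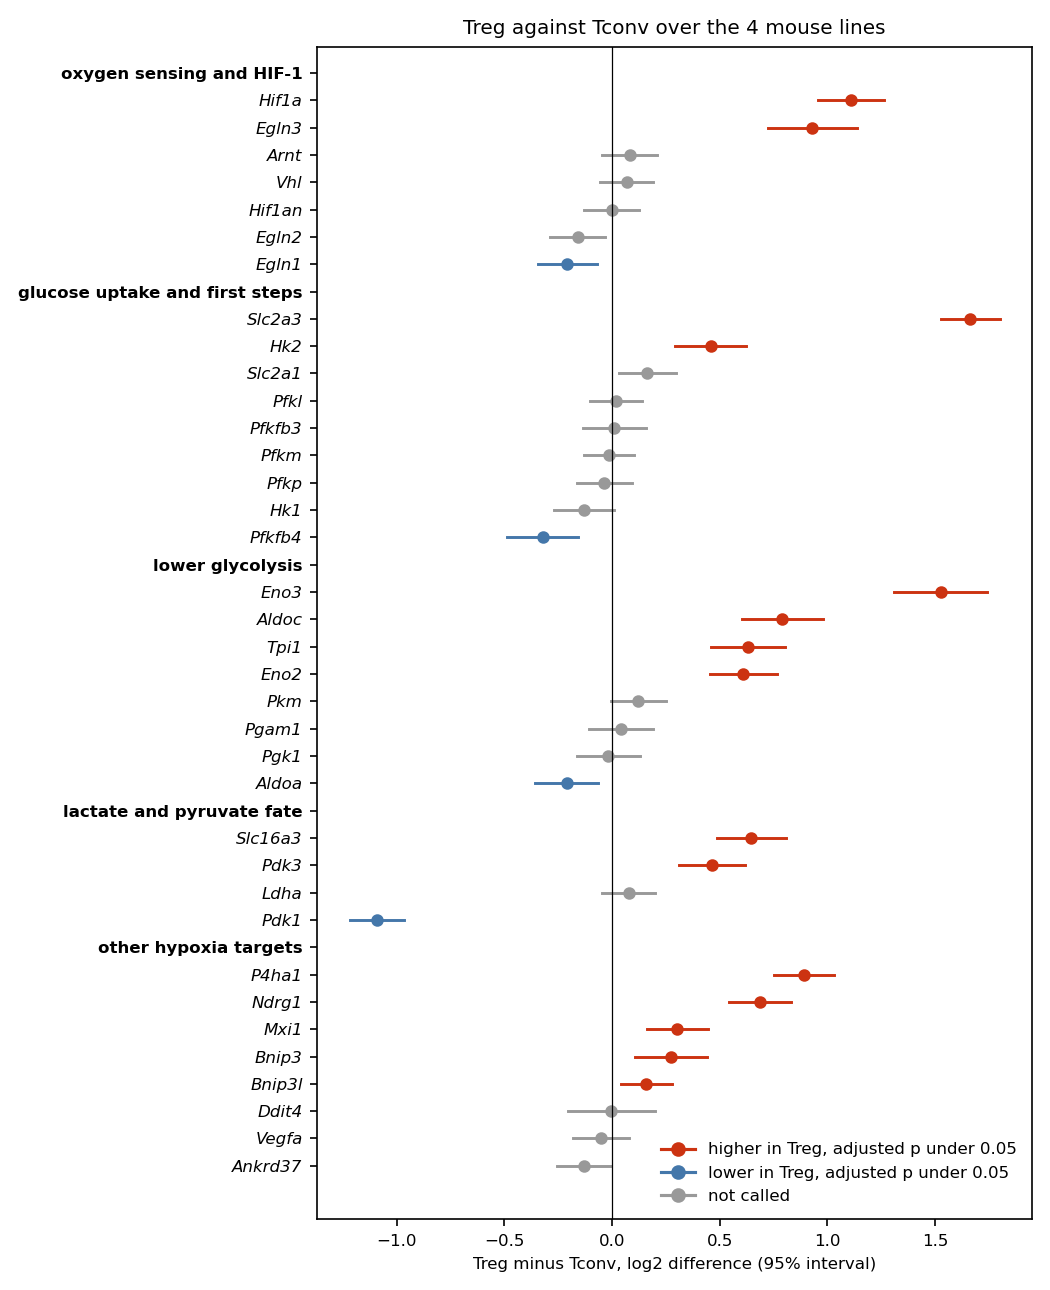
Difference in log2 intensity between Treg and Tconv (x axis, Treg minus Tconv over the 4 mouse lines) for the 36 genes tested, grouped by role; points are estimates and bars are 95% intervals. Slc2a3 at 1.66 and Eno3 at 1.53 lie farthest to the right and Pdk1 at -1.09 farthest to the left, while 17 genes drawn in grey did not pass the test.

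Among the 7 genes of oxygen sensing and HIF-1, 2 were higher in Treg and 1 was lower. Hif1a (probe set 10396421) read 9.33 and 9.59 in B6 fusion, 9.12 and 9.59 in B6 ires, 9.71 and 9.65 in NOD fusion and 9.75 and 9.64 in NOD ires Tconv. In Treg it read 10.91 and 10.88 in B6 fusion, 10.20 and 10.50 in B6 ires, 10.82 and 10.82 in NOD fusion and 10.53 and 10.60 in NOD ires mice. Every Treg array lay above every Tconv array, and the difference was 1.11 ± 0.07, or 2.16-fold (adjusted p = 7.35e-10). Egln3, the prolyl hydroxylase gene best known as a target of HIF-1 itself, read 6.15 and 6.48 in B6 fusion, 5.92 and 6.63 in B6 ires, 6.65 and 6.92 in NOD fusion and 6.88 and 6.66 in NOD ires Tconv. Its Treg arrays read 7.15 and 7.54 in B6 fusion, 7.08 and 6.77 in B6 ires, 7.99 and 7.91 in NOD fusion and 7.59 and 7.69 in NOD ires mice. Within each line both Treg arrays were above both Tconv arrays, although the lowest Treg array, of B6 ires mice, was under the highest Tconv array, of NOD fusion mice. The difference was 0.93 ± 0.10 (adjusted p = 4.36e-07). Egln1, which encodes the main oxygen sensor of most tissues, went the other way, at 8.70 and 8.89 in B6 fusion, 8.50 and 8.86 in B6 ires, 8.94 and 8.95 in NOD fusion and 9.01 and 8.92 in NOD ires Tconv. In Treg the pairs read 8.42 and 8.62 in B6 fusion, 8.51 and 8.65 in B6 ires, 8.62 and 8.66 in NOD fusion and 8.84 and 8.78 in NOD ires mice. The difference of -0.21 ± 0.07 was small and the arrays overlapped (adjusted p = 0.021). It lost its call without B6 fusion Tconv 2 (adjusted p = 0.0629), B6 ires Tconv 2 (0.0602) or B6 ires Treg 1 (0.0583). Egln2, the other hydroxylase gene, differed by -0.16 ± 0.06 (adjusted p = 0.0565). The stable partner gene Arnt differed by 0.08 ± 0.06, Vhl by 0.07 ± 0.06 and Hif1an, whose product hydroxylates an asparagine of HIF-1, by -0.0020 ± 0.06, and none of these passed the test.

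Of the 9 genes of glucose uptake and the first steps of glycolysis, 2 were higher in Treg and 1 was lower. Slc2a3 (probe set 10547641) encodes a glucose transporter of high affinity. It read 8.31 and 8.62 in B6 fusion, 8.61 and 8.84 in B6 ires, 8.85 and 8.80 in NOD fusion and 8.97 and 8.83 in NOD ires Tconv. In Treg the values were 10.35 and 10.45 in B6 fusion, 10.41 and 10.26 in B6 ires, 10.53 and 10.38 in NOD fusion and 10.42 and 10.34 in NOD ires mice. The lowest Treg array was 1 log2 unit or more above the highest Tconv array, and the difference was 1.66 ± 0.06, or 3.17-fold (adjusted p = 4.02e-13). Slc2a1, the transporter gene most often read as the glucose transporter of activated T cells, read 8.68 and 8.75 in B6 fusion, 8.55 and 8.71 in B6 ires, 8.69 and 8.75 in NOD fusion and 8.72 and 8.57 in NOD ires Tconv. Treg gave 8.76 and 9.03 in B6 fusion, 8.84 and 9.02 in B6 ires, 8.78 and 8.72 in NOD fusion and 8.88 and 8.70 in NOD ires mice. These ranges overlapped, and the difference of 0.16 ± 0.06 did not pass the test (adjusted p = 0.0613). It was called with the stricter filter (adjusted p = 0.0406), with trended and robust variances (0.0425) and without B6 ires Tconv 2 (0.0468) or B6 fusion Treg 1 (0.0221). Hk2, the inducible hexokinase gene, which commits glucose to the cell, had 5.77 and 5.82 in B6 fusion, 5.89 and 5.63 in B6 ires, 5.44 and 5.87 in NOD fusion and 5.26 and 5.67 in NOD ires Tconv. Its Treg values were 6.38 and 6.44 in B6 fusion, 6.36 and 6.44 in B6 ires, 5.91 and 5.72 in NOD fusion and 5.99 and 5.78 in NOD ires mice. The 4 B6 Treg arrays were above all others, and only they exceeded the filter of log2 6.06. The difference over the lines was 0.46 ± 0.08 (adjusted p = 1.62e-04). Since Hk2 entered the tests by the arrays where it is high, this call is a description. The same holds for its calls in B6 alone and between NOD and B6 Treg, given below.

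Pfkfb4 encodes an enzyme that sets the level of fructose 2,6-bisphosphate, the activator of phosphofructokinase. Its Tconv arrays read 6.95 and 6.94 in B6 fusion, 7.02 and 6.81 in B6 ires, 6.72 and 7.06 in NOD fusion and 6.57 and 7.07 in NOD ires mice. Treg read 6.64 and 6.54 in B6 fusion, 6.62 and 6.57 in B6 ires, 6.52 and 6.60 in NOD fusion and 6.67 and 6.41 in NOD ires mice. Treg was lower by 0.32 ± 0.08 (adjusted p = 0.0036), with some overlap between arrays, also within NOD ires mice. Its relative Pfkfb3 differed by 0.01 ± 0.07, and the phosphofructokinase genes Pfkl, Pfkm and Pfkp by 0.02 ± 0.06, -0.02 ± 0.05 and -0.04 ± 0.06. None of these 4 passed the test. Hk1, the constitutive hexokinase gene, is the one whose value turned on the probe set. Its brightest probe set (10414661), which the annotation ties to 1 accession and to no RefSeq mRNA, gave -0.13 ± 0.07 (adjusted p = 0.159), and the dimmer one (10369541), with RefSeq mRNAs, gave 0.25 with an adjusted p of 0.00248, higher in Treg.

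In lower glycolysis, 4 of 8 genes tested were higher in Treg and 1 was lower, with a median difference of 0.37. Eno3 (probe set 10377938) encodes the enolase best known from muscle. It read 7.19 and 7.32 in B6 fusion, 7.30 and 7.34 in B6 ires, 7.23 and 7.50 in NOD fusion and 7.33 and 7.11 in NOD ires Tconv. Treg read 8.63 and 9.05 in B6 fusion, 8.26 and 8.48 in B6 ires, 8.87 and 9.08 in NOD fusion and 8.66 and 9.50 in NOD ires mice. No Treg array was near the Tconv range, and the difference was 1.53 ± 0.10, or 2.88-fold (adjusted p = 8.95e-10). Eno2, the enolase gene best known from neurons, lay near the filter in Tconv, at 5.74 and 5.71 in B6 fusion, 5.95 and 5.66 in B6 ires, 5.77 and 6.19 in NOD fusion and 5.86 and 5.91 in NOD ires mice. Treg gave 6.20 and 6.24 in B6 fusion, 6.32 and 6.14 in B6 ires, 6.77 and 6.44 in NOD fusion and 6.76 and 6.80 in NOD ires mice. The 4 NOD Treg arrays were the highest, and the difference was 0.61 ± 0.07 (adjusted p = 2.70e-06). Of the Tconv arrays only NOD fusion Tconv 2, at 6.19, exceeded the filter of log2 6.06, while every Treg array did. Since Eno2 entered the tests by its Treg arrays, this call is a description. The same holds for its calls in B6 alone and in NOD alone. Aldoc is an aldolase gene best known from brain. It read 6.51 and 6.70 in B6 fusion, 6.42 and 6.70 in B6 ires, 6.79 and 6.56 in NOD fusion and 7.02 and 6.73 in NOD ires Tconv. Treg read 7.58 and 7.70 in B6 fusion, 7.84 and 7.14 in B6 ires, 7.50 and 7.32 in NOD fusion and 7.33 and 7.33 in NOD ires mice. All Treg arrays were above all Tconv arrays, with a difference of 0.79 ± 0.09 (adjusted p = 1.20e-06).

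Aldoa, the widely expressed aldolase gene, differed in the other direction from Aldoc. Its Tconv arrays gave 10.98 and 11.01 in B6 fusion, 10.85 and 11.09 in B6 ires, 10.94 and 10.95 in NOD fusion and 11.08 and 10.94 in NOD ires mice. In Treg they gave 10.66 and 10.97 in B6 fusion, 10.77 and 11.03 in B6 ires, 10.73 and 10.46 in NOD fusion and 10.83 and 10.70 in NOD ires mice. The ranges overlapped and Treg was lower by 0.21 ± 0.07 (adjusted p = 0.0299), a call lost without any 1 of 8 arrays (adjusted p 0.0546 to 0.0918): B6 fusion Tconv 2, NOD fusion Tconv 2, B6 ires Tconv 2, NOD ires Tconv 1, B6 fusion Treg 1, NOD fusion Treg 2, B6 ires Treg 1 or NOD ires Treg 2. Tpi1, triosephosphate isomerase, joins the products of aldolase into 1 stream. It read 8.19 and 8.51 in B6 fusion, 8.33 and 8.67 in B6 ires, 8.33 and 8.39 in NOD fusion and 8.43 and 8.46 in NOD ires Tconv. Treg gave 9.21 and 9.71 in B6 fusion, 9.04 and 9.27 in B6 ires, 8.85 and 8.66 in NOD fusion and 8.71 and 8.90 in NOD ires mice. The B6 Treg arrays were highest and the NOD Treg arrays lay at or just above the Tconv range, with a difference over the lines of 0.63 ± 0.08 (adjusted p = 6.48e-06). Phosphoglycerate kinase (Pgk1), phosphoglycerate mutase (Pgam1) and pyruvate kinase (Pkm) differed by -0.02 ± 0.07, 0.04 ± 0.07 and 0.12 ± 0.06. The interval for Pgk1 ran from -0.16 to 0.13 and that for Pkm from -0.01 to 0.25 (95% intervals).

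The fate of pyruvate showed both directions, with 2 of 4 genes higher in Treg and 1 lower. Pdk1 (probe set 10472846) read 9.92 and 10.13 in B6 fusion, 10.05 and 9.97 in B6 ires, 7.91 and 8.02 in NOD fusion and 7.84 and 7.67 in NOD ires Tconv. Treg read 8.61 and 8.76 in B6 fusion, 8.85 and 8.86 in B6 ires, 6.68 and 6.78 in NOD fusion and 7.18 and 7.05 in NOD ires mice. Treg was lower than Tconv in each line, by 1.09 ± 0.06 over the lines, or 2.13-fold (adjusted p = 5.22e-11), while the B6 Treg arrays were above the NOD Tconv arrays. Pdk3, a second kinase of pyruvate dehydrogenase, went the other way, at 7.64 and 7.87 in B6 fusion, 7.67 and 7.89 in B6 ires, 7.84 and 7.88 in NOD fusion and 8.10 and 7.93 in NOD ires Tconv. Treg read 8.28 and 8.74 in B6 fusion, 8.26 and 8.20 in B6 ires, 8.26 and 8.34 in NOD fusion and 8.12 and 8.33 in NOD ires mice. All Treg arrays were above all Tconv arrays, by 0.46 ± 0.07 on average (adjusted p = 6.39e-05). Slc16a3, the exporter of lactate from glycolytic cells, read 7.43 and 7.31 in B6 fusion, 7.65 and 7.29 in B6 ires, 7.47 and 7.37 in NOD fusion and 7.31 and 7.51 in NOD ires Tconv. Its Treg arrays read 8.25 and 8.27 in B6 fusion, 8.24 and 8.09 in B6 ires, 7.98 and 7.95 in NOD fusion and 7.62 and 8.11 in NOD ires mice. Only 1 Treg array, NOD ires 1, reached into the Tconv range, and the difference was 0.65 ± 0.08 (adjusted p = 1.90e-06). Ldha, which makes lactate from pyruvate, read 11.72 and 11.68 in B6 fusion, 11.68 and 11.72 in B6 ires, 11.57 and 11.78 in NOD fusion and 11.70 and 11.73 in NOD ires Tconv. In Treg it read 11.72 and 11.90 in B6 fusion, 11.75 and 11.81 in B6 ires, 11.79 and 11.64 in NOD fusion and 11.85 and 11.74 in NOD ires mice. The ranges overlapped, and the difference was 0.08 ± 0.06 with a 95% interval from -0.05 to 0.20 (adjusted p = 0.374).

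**Figure D2:**
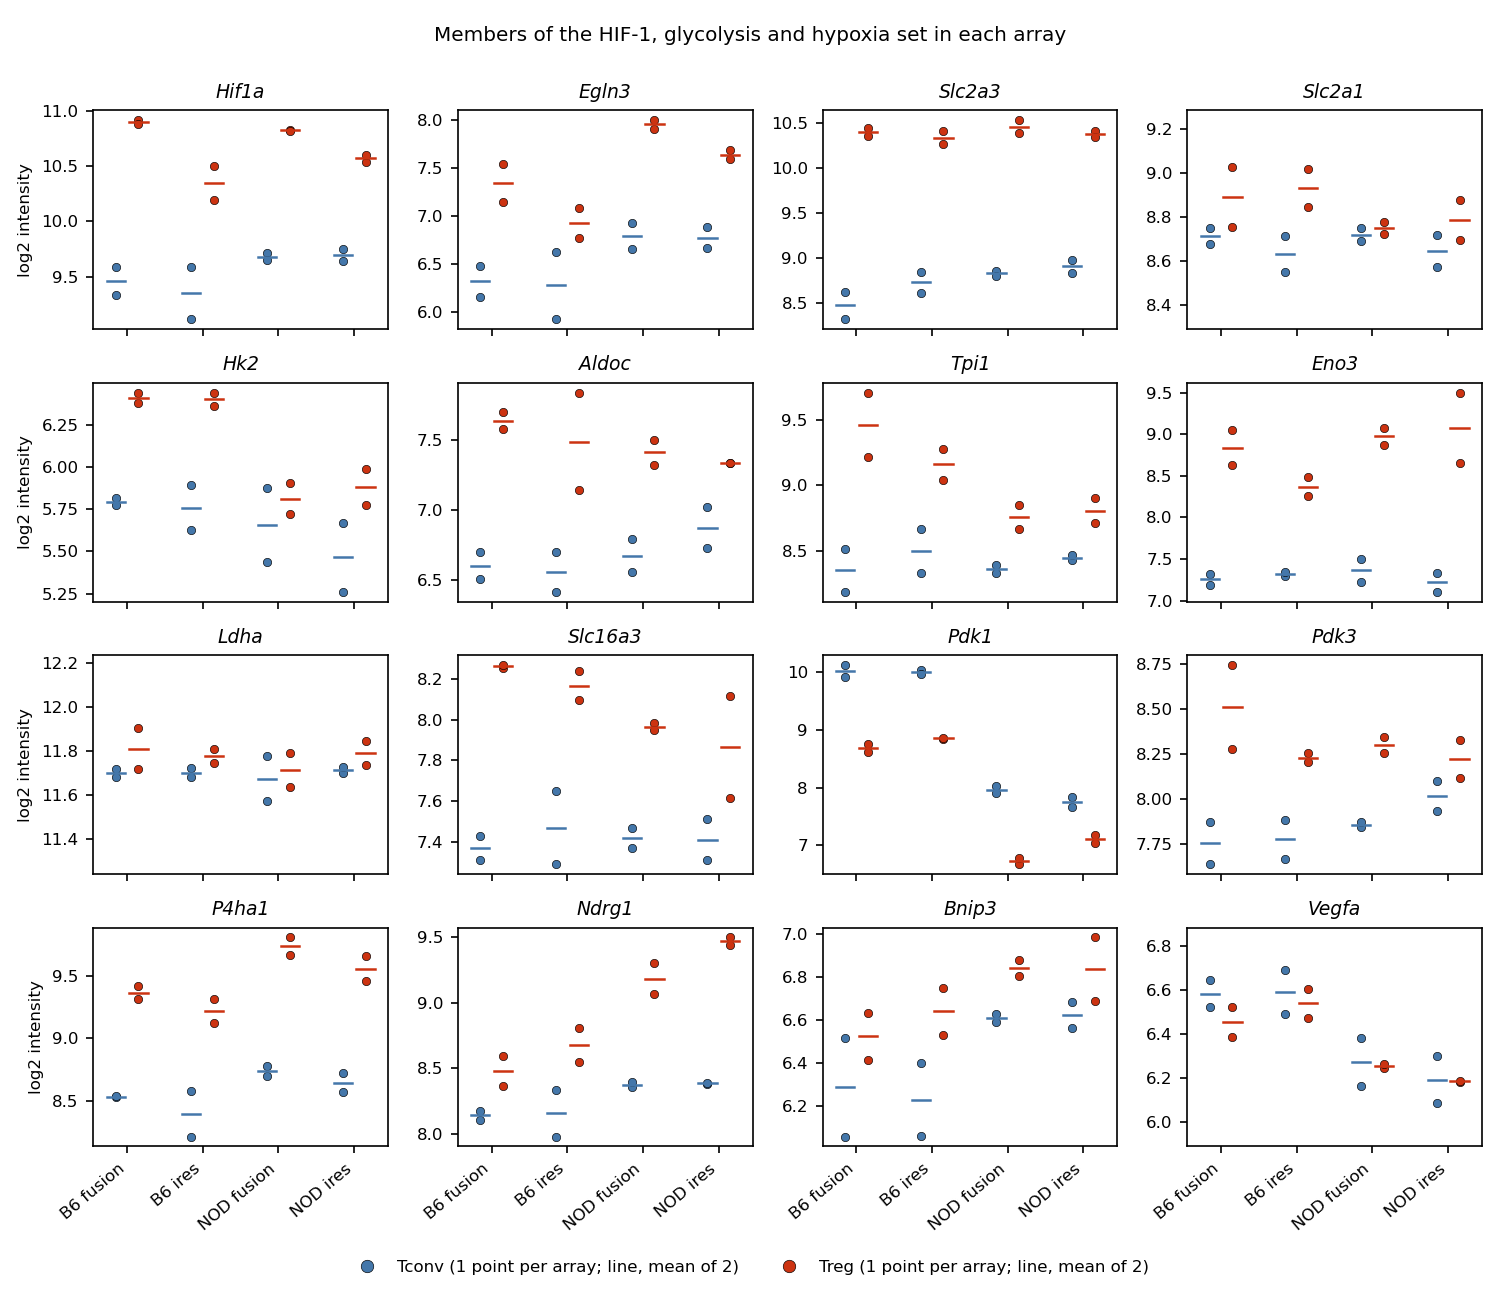
Log2 intensity (y axis, scaled to each gene) on every array for 16 of the genes, by mouse line (x axis); each point is 1 array, blue for Tconv and red for Treg, and each line is the mean of 2. The Slc2a3 panel shows all Treg arrays between 10.26 and 10.53 over Tconv arrays between 8.31 and 8.97, and the Pdk1 panel shows both the lower Treg arrays and the lower NOD arrays.

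Among other hypoxia targets, 5 of 8 tested were higher in Treg and none was lower. P4ha1, which encodes the catalytic subunit of collagen prolyl hydroxylase, read 8.53 and 8.54 in B6 fusion, 8.21 and 8.58 in B6 ires, 8.70 and 8.78 in NOD fusion and 8.57 and 8.72 in NOD ires Tconv. Treg gave 9.31 and 9.42 in B6 fusion, 9.13 and 9.31 in B6 ires, 9.67 and 9.81 in NOD fusion and 9.46 and 9.66 in NOD ires mice. The arrays did not overlap, and the difference was 0.89 ± 0.07 (adjusted p = 4.34e-09). Ndrg1, a stress-responsive gene that hypoxia induces in many tissues, read 8.10 and 8.18 in B6 fusion, 8.33 and 7.98 in B6 ires, 8.36 and 8.39 in NOD fusion and 8.38 and 8.39 in NOD ires Tconv. In Treg the arrays gave 8.37 and 8.59 in B6 fusion, 8.81 and 8.55 in B6 ires, 9.30 and 9.06 in NOD fusion and 9.44 and 9.50 in NOD ires mice. The difference was 0.69 ± 0.07 (adjusted p = 2.33e-07), and the NOD Treg arrays were the highest. Mxi1 encodes an antagonist of Myc. Its values were 7.33 and 7.74 in B6 fusion, 7.73 and 7.73 in B6 ires, 7.61 and 7.43 in NOD fusion and 7.68 and 7.68 in NOD ires Tconv. Treg had 7.93 and 8.12 in B6 fusion, 7.99 and 7.94 in B6 ires, 7.85 and 7.84 in NOD fusion and 7.74 and 7.93 in NOD ires mice. The lowest Treg and the highest Tconv array both read 7.74, with a difference of 0.30 ± 0.07 (adjusted p = 0.0019).

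Bnip3, a gene for the removal of mitochondria, had a wide spread between arrays, at 6.52 and 6.06 in B6 fusion, 6.06 and 6.40 in B6 ires, 6.63 and 6.59 in NOD fusion and 6.56 and 6.69 in NOD ires Tconv. Treg read 6.63 and 6.42 in B6 fusion, 6.53 and 6.75 in B6 ires, 6.88 and 6.80 in NOD fusion and 6.98 and 6.69 in NOD ires mice. The difference was 0.27 ± 0.08 (adjusted p = 0.0135). Its relative Bnip3l, of like function, differed by 0.16 ± 0.06 (adjusted p = 0.0441). That call was lost without any 1 of 12 arrays (adjusted p 0.0604 to 0.113) and held without B6 ires Tconv 2, NOD ires Tconv 1, B6 fusion Treg 1 or NOD fusion Treg 1. It was also lost with no filter (0.0798), with arrays centred on the median (0.224) and after quantile normalization (0.0834). Vegfa, the angiogenic factor and a classical HIF-1 target, read 6.64 and 6.52 in B6 fusion, 6.69 and 6.49 in B6 ires, 6.38 and 6.16 in NOD fusion and 6.08 and 6.30 in NOD ires Tconv. Treg read 6.52 and 6.39 in B6 fusion, 6.61 and 6.47 in B6 ires, 6.25 and 6.26 in NOD fusion and 6.18 and 6.18 in NOD ires mice. The range of Treg lay within that of Tconv (-0.05 ± 0.06, adjusted p = 0.606). Ddit4, an inhibitor of mTOR complex 1, differed by -0.0034 ± 0.10 and Ankrd37 by -0.13 ± 0.06 (adjusted p = 0.121). Ero1a, the present name of Ero1l and not counted among the 8, differed by -0.09 ± 0.08 (adjusted p = 0.436).

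By mouse line, all 19 called genes had the same sign in all 4 lines, as did 24 of the 36 tested. Since the pooled call is an average of these lines, this is a description. The share of all genes with the same sign in all 4 lines was not counted. In B6 alone, 16 genes were called (14 higher and 2 lower), where 20.8% of all genes were. In NOD alone, 13 were called (11 and 2), where 18.4% of all genes were. Alternative runs changed a setting or left out 1 array. In B6 the calls of Bnip3 and Pfkfb4 held in 10 and 16 of 24 such runs, and that of Mxi1 in 24 of 25. In NOD those of Aldoa, Pdk3 and Tpi1 held in 15, 17 and 18 of 25. The other calls in B6 and in NOD held in every run. The largest in B6 were Slc2a3 at 1.77 ± 0.09, Eno3 at 1.32 ± 0.14, Pdk1 at -1.25 ± 0.08, Hif1a at 1.21 ± 0.10 and Aldoc at 0.98 ± 0.13. Tpi1 followed at 0.88 ± 0.12, Egln3 at 0.84 ± 0.14, P4ha1 at 0.83 ± 0.09, Slc16a3 at 0.79 ± 0.11 and Hk2 at 0.63 ± 0.11. In NOD the order began with Eno3 at 1.73 ± 0.14, Slc2a3 at 1.55 ± 0.09, Egln3 at 1.02 ± 0.14, Hif1a at 1.01 ± 0.10 and P4ha1 at 0.96 ± 0.09. Then came Ndrg1 at 0.95 ± 0.10, Pdk1 at -0.94 ± 0.08, Eno2 at 0.76 ± 0.10, Aldoc at 0.60 ± 0.13 and Slc16a3 at 0.50 ± 0.11. The calls of Hk2 in B6 and of Eno2 in NOD are descriptions, as both genes entered the tests by their Treg arrays. Each of these 20 differences separated all 4 Treg arrays of its background from all 4 Tconv arrays. How many of all genes did so was not counted either.

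Other genes of the pathway were read from 4 further lists, with the 28.6% of all genes called between Treg and Tconv as background. Among HIF pathway regulators, 5 of 15 tested were higher in Treg and 2 were lower, with a median difference of 0.03. Epas1, which encodes the HIF-2 alpha subunit, was lower by 1.03 ± 0.07, with all Treg arrays under all Tconv arrays. Siah1a, a ubiquitin ligase gene that acts on the prolyl hydroxylases, was lower by 0.60 ± 0.08, and Arnt2 and Elob, a partner of Vhl in its ligase, were higher by 0.49 ± 0.08 and 0.38 ± 0.06. Among other glycolysis and sugar genes, 9 of 32 were higher and 3 lower (median 0.03). Gpd2, the mitochondrial glycerol phosphate shuttle gene, was lower by 0.96 ± 0.08 and Pfkfb2 by 0.39 ± 0.06, while Tkt of the pentose phosphate pathway and Pdk2, another kinase of this family, were higher by 0.36 ± 0.06 and 0.32 ± 0.07.

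Other hypoxia response genes gave 9 higher and 5 lower of 32 (median 0.05). Nt5e, the ectoenzyme CD73 that makes adenosine, was higher by 2.26 ± 0.12, Nfil3 by 1.34 ± 0.09, Rora by 1.05 ± 0.07 and Bhlhe40 by 0.92 ± 0.11. The last 3 encode transcription factors with known functions in T cells outside hypoxia. Genes of mTOR, Myc and AMPK nutrient signalling gave 9 higher and 3 lower of 32 (median 0.09). The Myc antagonists Mxd1 and Mxd4 were higher by 1.27 ± 0.08 and 0.71 ± 0.06, and Sesn1, a sestrin that restrains mTOR, by 0.55 ± 0.07. Pik3ip1, an inhibitor of phosphoinositide kinase, was lower by 1.14 ± 0.06. Adjusted p-values of these named genes ran up to that of Pdk2, 0.00261.

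The reporter allele was compared next, since the fusion joins GFP to the Foxp3 protein. None of the 36 genes was called between fusion and ires Treg (limma), where 0.609% of all genes were, so a count of 0 is close to the background. At an unadjusted p under 0.05 there were 5 genes, where 7.55% of all genes were. With trended and robust variances limma called 1, Hif1a. In fusion Treg, Hif1a read 10.91, 10.88, 10.82 and 10.82, and in ires Treg 10.20, 10.50, 10.53 and 10.60. All 4 fusion arrays were above all 4 ires arrays, with a difference of 0.40 ± 0.10 that did not pass the test (adjusted p = 0.114). It passed with trended and robust variances (adjusted p = 0.0335) and without B6 ires Tconv 1 or B6 ires Tconv 2 (0.0491 each). Markers of naive or recirculating T cells, none of them called, summed to 2615 to 4053 in fusion Treg and 4036 to 5002 in ires Treg. All 3 tested, Ccr7, Lef1 and Igfbp4, had lower means in fusion Treg at an unadjusted p under 0.05, with a median difference of -0.32. Of the 5 Treg markers 3 had an unadjusted p under 0.05, Foxp3 at -0.43 ± 0.16, Ctla4 at 0.49 ± 0.17 and Ikzf2 at 0.28 ± 0.13. Their part in the difference of Hif1a was not tested. The other 4 genes were Egln3 at 0.36 ± 0.14, Pdk1 at -0.28 ± 0.08, Ankrd37 at 0.25 ± 0.08 and Ndrg1 at -0.24 ± 0.10, with adjusted p-values of 0.432, 0.243, 0.323 and 0.515.

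In B6 Treg alone, 0 of 36 genes were called where 0.344% of all genes were, and 3 had an unadjusted p under 0.05, where 9.15% of all genes did. Hif1a differed there by 0.55 ± 0.15 (adjusted p = 0.184), and was called when only the groups compared were fitted (0.0378). In NOD Treg alone, 0 were called where 0.102% of all genes were, and 2 had an unadjusted p under 0.05 (4.81% of all genes). Hif1a differed by 0.25 ± 0.15 in NOD. The allele effect in Treg differed between NOD and B6 for 0 of the 36, where 0.0391% of all genes were called, with 0 at an unadjusted p under 0.05 (6.08% of all genes). For Hif1a this difference of differences was -0.30 ± 0.21 (adjusted p = 0.776). In Tconv, 0 were called between the alleles, where 0.0234% of all genes were, again with 0 at an unadjusted p under 0.05 (2.97% of all genes), and Hif1a differed by 0.05 ± 0.10. The difference of the allele effects of Treg and Tconv was called for 0, where 0.0469% of all genes were, and 3 had an unadjusted p under 0.05 (3.57% of all genes). With trended and robust variances, limma called none of the 36 in these 5 contrasts. Of the other pathway lists, Nfil3 was the only gene called between fusion and ires Treg, at 0.62 ± 0.13 (adjusted p = 0.0362).

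**Figure D3:**
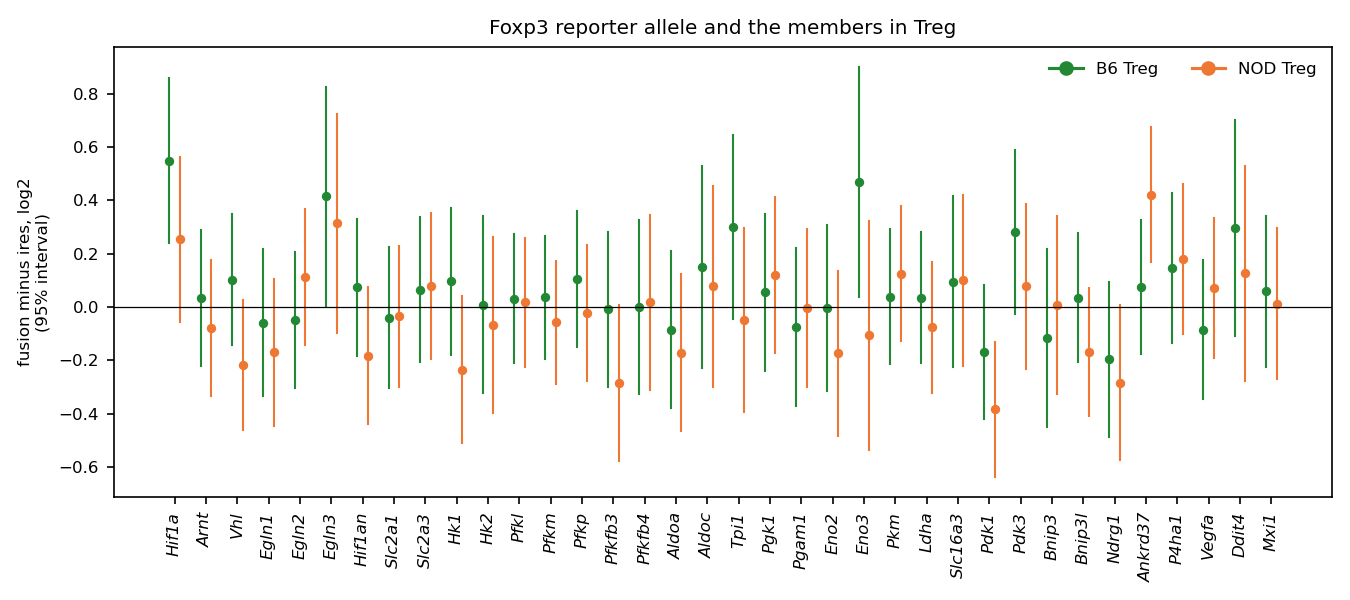
Difference in log2 intensity between fusion and ires Treg (y axis) for each of the 36 genes (x axis), in B6 (green) and NOD (orange); points are estimates from 2 arrays against 2 and bars are 95% intervals. Hif1a stands at 0.55 in B6 and 0.25 in NOD, and no gene passed the test in either background.

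More of these genes differed between the backgrounds than between the alleles, as did more genes in all. NOD and B6 Treg differed at 14 of the 36 genes (38.9%), where 21.0% of all genes were called. Of these 8 were higher in NOD, where 11.2% of all genes were, and 6 were lower, where 9.82% were. The median was -0.08 over the 36. In Tconv, 5 genes were called (13.9%), where 15.9% of all genes were, 3 higher and 2 lower, beside 9.39% and 6.49% of all genes, so the share in Tconv was near the background. Sequence differences between NOD and the probes of the array were not examined. Scaling moved the split: with arrays centred on the median, 8 were higher and 3 lower in NOD Treg, and 6 higher and 2 lower in NOD Tconv. After quantile normalization, 7 were higher and 7 lower in Treg, and 3 and 3 in Tconv.

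Pdk1 had the largest background difference of the 36 in both cell types. On the arrays given above, B6 Tconv spanned 9.92 to 10.13 and NOD Tconv 7.67 to 8.02, and B6 Treg spanned 8.61 to 8.86 and NOD Treg 6.68 to 7.18. No NOD array reached the B6 range of the same cell type. NOD was lower by 1.85 ± 0.08 in Treg and by 2.16 ± 0.08 in Tconv (adjusted p = 3.93e-11 and 8.16e-12), or 3.6-fold and 4.46-fold. Both calls held without any 1 array.

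Among the other called genes in Treg, Ndrg1 was higher in NOD by 0.75 ± 0.10, Egln3 by 0.66 ± 0.14, Pfkp, the platelet type phosphofructokinase gene, by 0.50 ± 0.09 and Eno2 by 0.47 ± 0.10. Hk2, under the filter on every NOD array, and Tpi1 were lower by 0.56 ± 0.11 and 0.53 ± 0.12. For all 6 the 4 NOD Treg arrays lay wholly to 1 side of the 4 B6 arrays, a separation not counted over all genes. The highest adjusted p was that of Eno2, 0.00429, and the calls held without any 1 array. Eno3 was higher by 0.42 ± 0.14 (adjusted p = 0.0468), P4ha1 by 0.36 ± 0.09 and Pfkfb3 and Pfkm by 0.30 ± 0.10 and 0.24 ± 0.08. Pgk1, Pgam1 and Vegfa were lower by 0.39 ± 0.10, 0.31 ± 0.10 and 0.28 ± 0.09.

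These last 7 calls depended on single arrays. Pgk1 lost its call without B6 ires Treg 2 (adjusted p = 0.0661). P4ha1 lost it without B6 fusion Treg 1, NOD fusion Treg 2, B6 ires Treg 1 or NOD ires Treg 2 (0.0521 to 0.0627). Pgam1 lost it without B6 fusion Treg 1 or 2, NOD fusion Treg 2, B6 ires Treg 2 or NOD ires Treg 2 (0.0594 to 0.167), and Pfkfb3 without B6 fusion Treg 1, NOD fusion Treg 1 or 2, B6 ires Treg 2 or NOD ires Treg 2 (0.0701 to 0.191). Pfkm lost it without any 1 Treg array other than B6 fusion Treg 2 and B6 ires Treg 1 (0.0595 to 0.137), and Vegfa without any other than B6 fusion Treg 2 (0.0538 to 0.113). Eno3 lost it without any 1 B6 Tconv array, B6 fusion Treg 1, NOD fusion Treg 2, B6 ires Treg 1 or 2, or NOD ires Treg 2 (0.0505 to 0.256). Other settings ended 6 of the 7 calls as well. With no filter, Eno3, Pfkfb3, Pfkm, Pgam1 and Vegfa were not called (adjusted p 0.055 to 0.0667). With arrays centred on the median, Pgk1 (0.0518), Pgam1 (0.133) and Vegfa (0.106) were not. Eno3 was lost after quantile normalization (0.0679), Eno3 and Vegfa with trended and robust variances (0.0592 and 0.0514), and Pfkm and Pfkfb3 with only the groups compared (0.0722 and 0.0564). The count of 14 fell to 8 without B6 fusion Treg 1 and to 9 without NOD fusion Treg 2, B6 ires Treg 2 or NOD ires Treg 2.

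In Tconv, Pfkp was higher in NOD by 0.64 ± 0.09 (adjusted p = 6.32e-05), with B6 arrays at 9.28 to 9.49 and NOD arrays at 9.93 to 10.15, and this call held without any 1 array. Egln3 and Bnip3 were higher by 0.48 ± 0.14 and 0.36 ± 0.11, and Vegfa was lower by 0.35 ± 0.09. Egln3 and Vegfa lost their calls without B6 fusion Tconv 1, NOD fusion Tconv 2, B6 ires Tconv 1 or NOD ires Tconv 1 (adjusted p 0.106 to 0.146 and 0.0622 to 0.0783). Bnip3 lost its call without any 1 Tconv array other than B6 fusion Tconv 1 and B6 ires Tconv 2 (0.0748 to 0.167), and also with no filter (0.0576). With only the groups compared, Bnip3 (0.0607) and Egln3 (0.0527) were not called. Hif1a was not called, at 0.28 ± 0.10 (adjusted p = 0.072), with all 4 NOD arrays above all 4 B6 arrays, but was called with arrays centred on the median (0.37, adjusted p = 0.042), with trended and robust variances (0.0376) and without B6 ires Tconv 2 (0.0142). Slc2a3, at 0.27 ± 0.09, was not called either (adjusted p = 0.0551), but was with the stricter filter (0.0427), with arrays centred on the median (0.35, 0.0297), with trended and robust variances (0.0313) and without B6 fusion Tconv 2 (0.0318) or B6 ires Tconv 2 (0.0338). The count of 5 was 3 without B6 fusion Tconv 1, 2 without NOD fusion Tconv 2, B6 ires Tconv 1 or NOD ires Tconv 1, and 9 without B6 ires Tconv 2.

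**Figure D4:**
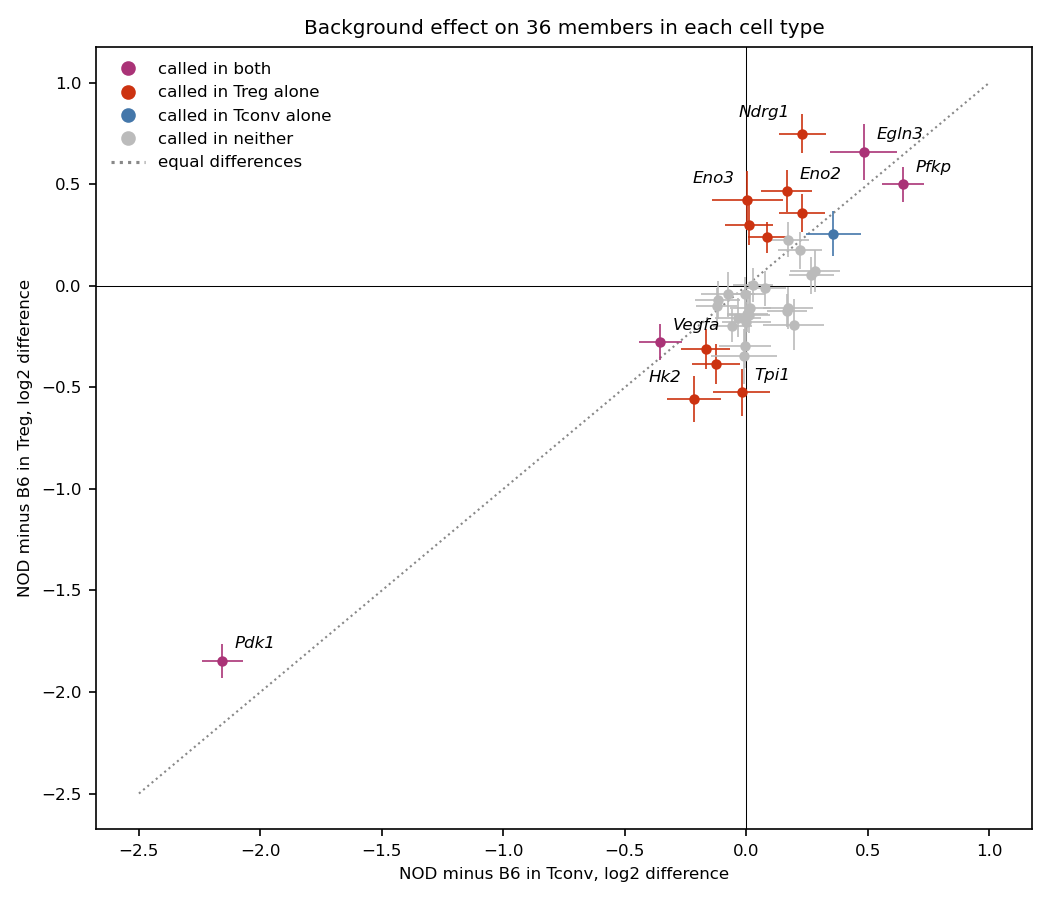
Difference in log2 intensity between NOD and B6 in Tconv (x axis) and in Treg (y axis) for the 36 genes; points are estimates, bars are 1 standard error, and the dotted line marks equal differences. Pdk1 lies far from the others at -2.16 in Tconv and -1.85 in Treg, and Ndrg1 lies above the line at 0.23 and 0.75.

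Whether the background acted differently in Treg and Tconv was tested by the difference of both effects. None of the 36 genes was called (limma), where 0.820% of all genes were, and 6 had an unadjusted p under 0.05, where 9.90% of all genes did. Ndrg1 was nearest, at 0.52 ± 0.14 (adjusted p = 0.106), followed by Tpi1 at -0.51 ± 0.16 (adjusted p = 0.228). Ndrg1 was called with trended and robust variances (0.0468) and without B6 ires Tconv 2 (0.61, adjusted p = 0.0362).

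Other measurements moved with the background in Treg. Summed CD8+ T and NK cell marker intensities were 760 to 869 in B6 Treg and 538 to 644 in NOD Treg, and myeloid sums were 514 to 551 and 404 to 461. Of the 4 tested CD8+ T and NK cell markers 2 were called, Cd8a and Cd8b1, both lower in NOD Treg, and of the 5 tested myeloid markers 2 were, Lyz2 and Itgam, also lower. Treg marker sums were 12967 to 14888 in B6 Treg and 10643 to 12617 in NOD Treg, and those of naive or recirculating cells were 2615 to 4042 and 3672 to 5002. In NOD Treg, 2 of 5 Treg markers and 1 of 3 tested B cell markers were called lower, and 1 of 3 naive markers higher. Of 6 tested CD4+ T cell markers 2 were called higher and 1 lower. Their sums were 16340 to 18314 in B6 Treg and 19056 to 20598 in NOD Treg. No tested red cell and platelet marker was called. The interquartile range of log2 intensity was 2.70 to 3.07 on B6 arrays and 2.83 to 3.06 on NOD arrays. In Tconv, 3 of the 5 Treg markers were called higher in NOD, Foxp3 by 0.50 ± 0.16, Il2ra by 0.85 ± 0.21 and Ikzf2 by 0.61 ± 0.13. Treg marker sums were 518 to 647 in B6 Tconv and 579 to 996 in NOD Tconv, so these overlapped. CD4+ T cell marker sums were 17049 to 17877 and 19275 to 20307 there, with Cd3e and Cd3g called higher in NOD, and Klrd1 of the CD8+ T and NK cell list was called lower. No tested B cell, myeloid, red cell and platelet or naive T cell marker was called in Tconv. The part of these in the background differences was not tested.

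In the other pathway lists, the background comparison gave calls in both directions in Treg, beside 21.0% of all genes. HIF pathway regulators had 2 higher in NOD and 3 lower of 15, led by Elob, lower by 0.53 ± 0.08, and Siah1a, higher by 0.53 ± 0.11. Other glycolysis and sugar genes had 5 higher and 7 lower of 32. The mutase gene Pgam2 was higher by 0.61 ± 0.11 and Pfkfb2 by 0.47 ± 0.09, and Ldhb, the second lactate dehydrogenase gene, and Mdh1 were lower by 0.56 ± 0.10 and 0.49 ± 0.09. Other hypoxia response genes had 5 higher and 4 lower of 32, among them the demethylase genes Tet1 and Kdm6b, higher by 0.61 ± 0.10 and 0.55 ± 0.10, and Mif, lower by 0.43 ± 0.09. The nutrient signalling list had 6 and 6 of 32, with the glutamine transporter gene Slc1a5 lower by 0.80 ± 0.08 and Rptor, the scaffold of mTOR complex 1, higher by 0.51 ± 0.09.

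In Tconv, beside 15.9% of all genes, these lists had 1 higher and 0 lower, 7 and 2, 4 and 2, and 3 and 2. Cul2, the cullin of the Vhl ligase, was the regulator called, at 0.35 ± 0.11. Ldhb was lower in NOD Tconv by 0.70 ± 0.10 and Gpd2 higher by 0.44 ± 0.12. Tet1 was higher by 0.52 ± 0.10 and Slc1a5 lower by 0.74 ± 0.08.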

How the data were processed

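RNA from 16 sorted cell samples, 2 in each of 8 groups, was measured on Affymetrix Mouse Gene 1.0 ST arrays. Per the submitters' processing notes, the authors ran RMA in Affymetrix Power Tools, which gave the linear intensities that they deposited. Neither the tool versions nor the annotation's build is given in the sources used here. RMA summarises many probes of a transcript into 1 value, so isoforms are not resolved and low signals are compressed towards background.

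Intensities were turned into log2 values with no pseudocount. Of 25108 probe sets, 21157 had exactly 1 symbol, 1341 several and 2610 none. A gene entered the tests when 2 or more arrays exceeded log2 6.06, the 40th percentile over the table. limma 3.58.1 (R 4.3.3) was fitted to all 16 arrays with 1 mean per group (8 residual and 9.80 prior degrees of freedom). Tests were two-sided, adjusted by Benjamini-Hochberg over 12798 genes, and adjusted p-values under 0.05 count as called. The procedure was tested on simulated data. Errors are standard errors and intervals cover 95%.

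The genes and lists were chosen with earlier results of these data known. Values of every array were given for 10 genes chosen by name, except Gapdh, which had none. They were also given for the 12 other called genes with the largest difference between Treg and Tconv. Up to 10 called genes were named in each other contrast, except NOD against B6 in Treg, where all were. Up to 4 were named in each other list. Alternatives changed the filter, scaling, variance model, probe set choice, arrays fitted and replicate block, and each array was left out in turn. The replicate numbers were not taken as pairs.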

Additional observations from a re-analysis of the deposited data

How the results depend on the processing

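Of 67 called differences of the listed genes, 48 kept their direction and call under every alternative run, and 1 uncalled difference turned sign with a call: Hk1 between Treg and Tconv was 0.25 with RefSeq probe sets (adjusted p = 0.00248), an alternative added after seeing the data. Between Treg and Tconv the count of called genes stayed within 1.5 times of 19, 16 and 13 throughout. For fusion against ires in Treg the count was 1 with trended and robust variances and 0 to 1 without single arrays, and in B6 Treg it was 1 with only the groups compared. For NOD against B6 in Treg it was 9 with no filter and 8 to 15 without single arrays. In Tconv it was 8 with arrays centred on the median, 3 with only the groups compared, 8 with the replicate block and 2 to 9 without single arrays. The difference of these background effects gave 1 with trended and robust variances, 2 with the replicate block (Ndrg1 and Tpi1, adjusted p = 0.0262 and 0.0315) and 0 to 1 without single arrays. Deviations of same-numbered Treg and Tconv arrays correlated at 0.398, 0.396, 0.239 and 0.08 in B6 fusion, B6 ires, NOD fusion and NOD ires. Over all 28 pairs of groups such correlations ran from -0.371 to 0.465 (median 0.146). The main fit did not treat the numbers as pairs, so it did not remove a part that same-numbered arrays may share. Over all genes, the block called 4389 between Treg and Tconv in place of 3664. The block also called Slc2a1 between Treg and Tconv (adjusted p = 0.0228) and, between NOD and B6 Tconv, Hif1a (0.0489) and Slc2a3 (0.0467). The promoter share was 71.4% with ACGTG alone in place of 88.6%. Over all genes, fusion against ires called 48 in place of 78 in Treg with centring, 168 in place of 44 in B6 Treg and 2 in place of 13 in NOD Treg with only the groups compared. The allele effect, NOD minus B6, had 5 calls, 9 with the stricter filter or trended variances and 8 after quantile normalization or with only the groups compared. That in Tconv had 3, and 6 with trended variances. Treg minus Tconv had 6 for the allele (19 with trended variances, 31 with the block) and 105 for the background (258 with the block). Without single arrays, the allele calls were 30 to 91 in Treg, 11 to 49 in B6 Treg, 3 to 15 in NOD Treg, 3 to 8 for NOD minus B6, 2 to 12 in Tconv and 2 to 18 for Treg minus Tconv. The background calls were 1597 to 3063 in Treg, 841 to 2365 in Tconv and 69 to 141 for their difference. The split of higher to lower was 2138 to 1526 between Treg and Tconv, and 2033 to 2400 after quantile normalization. For NOD against B6 it was 1433 to 1257 in Treg and 1202 to 831 in Tconv, and 1660 to 688 and 1844 to 339 with centring. The median of all genes moved by at most 0.0981 with scaling. The causes were not tested. With 2 arrays a group and low signals such as those of P4ha2 and Car9, small differences cannot be measured.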
